A study of Homo sapiens with 12 samples.

Results

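MX1 and MX2 are the human members of the MX family of dynamin-like GTPases, antiviral proteins that cells make in response to interferon. They were read from every probe set of the array whose annotation names only MX1 or only MX2. The rule found 2 of the 54675 probe sets, 1 for MX1 (202086_at) and 1 for MX2 (204994_at), that is 2 of 19775 genes, and no probe set named either gene together with another. Both were described across 3 cell lines and 4 treatments, 1 array for each, 12 arrays in all. The lines were PC-3 (prostate cancer), HBC4 (breast cancer) and MKN74 (gastric cancer). Each was transfected with (uuaggg)4, an RNA oligonucleotide of the telomeric RNA repeat, with AS1411, a guanine-rich DNA aptamer, with (uuaccc)4, an RNA oligonucleotide in which cytosines stand in place of the guanines, or with the reagent alone. The submitters count (uuaggg)4 and AS1411 as G4 oligonucleotides, able to fold into G-quadruplexes (stacked guanine tetrads), and the other treatments as controls. All 4 groups share the Lipofectamine RNAiMAX reagent, the culture on a low-adhesion surface and the harvest at 72 h, and no untransfected cells were analysed here. Each transfection used 300000 cells. The oligonucleotides were given at 100 pmol (1 ug) per well, and the reagent alone carried no oligonucleotide. Because a line has a single array per treatment, the 3 lines are the replicates of a treatment, and each line is an established culture that stands for its tumour type only as far as 1 line can.

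MX proteins are large GTPases that assemble into oligomers around viral components. MX1, also called MxA, lies in the cytoplasm and blocks many RNA viruses, influenza virus among them. MX2, also called MxB, is found at the nuclear envelope and nuclear pores and blocks the nuclear entry of HIV and the replication of herpesviruses. Both genes are switched on by type I and type III interferons: the receptors activate JAK kinases, and the transcription factors these switch on enter the nucleus with IRF9 and bind the interferon-stimulated response element (ISRE) in the promoters of target genes. MX1 is among the genes used to detect an interferon response in tissue.

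The promoter sequences of MX1 are shown because they hold matches to the element this pathway is known to use. RefSeq (build GRCh38.p14) gave 3 start sites on the plus strand of chromosome 21, and each window below runs from 250 bases before to 50 bases after the start. Capitals mark an ISRE core, searched on both strands as GAAANNGAAA and as the shorter form GAAANGAAA, which was added after the first window had been read.
MX1 window 1, chr21:41420308-41420607: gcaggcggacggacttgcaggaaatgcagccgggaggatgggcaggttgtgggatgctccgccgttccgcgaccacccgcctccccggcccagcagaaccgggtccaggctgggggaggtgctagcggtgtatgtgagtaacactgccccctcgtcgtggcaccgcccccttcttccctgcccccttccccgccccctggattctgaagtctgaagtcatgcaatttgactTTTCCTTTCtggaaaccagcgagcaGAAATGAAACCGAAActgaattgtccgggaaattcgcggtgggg
MX1 window 2, chr21:41425989-41426288: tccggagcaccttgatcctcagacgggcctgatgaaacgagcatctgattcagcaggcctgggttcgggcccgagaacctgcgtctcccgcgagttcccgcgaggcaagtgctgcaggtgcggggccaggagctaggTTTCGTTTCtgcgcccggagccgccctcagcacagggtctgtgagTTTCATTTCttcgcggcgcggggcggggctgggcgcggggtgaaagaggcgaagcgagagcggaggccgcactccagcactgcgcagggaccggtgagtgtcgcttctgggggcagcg
MX1 window 3, chr21:41431800-41432099: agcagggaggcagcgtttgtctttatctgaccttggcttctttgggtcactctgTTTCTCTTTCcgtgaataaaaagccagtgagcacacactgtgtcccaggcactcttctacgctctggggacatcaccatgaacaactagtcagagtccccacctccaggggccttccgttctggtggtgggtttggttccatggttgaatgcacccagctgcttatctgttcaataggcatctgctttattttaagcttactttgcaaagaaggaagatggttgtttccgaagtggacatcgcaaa
In window 1 the core GAAACCGAAA lies at bases 12 to 21, counted from 1 at the start, and overlaps a short form, GAAATGAAA, at bases 7 to 15. A further short form on the minus strand, TTTCCTTTC, lies from base -19 to base -11. Window 2 holds short forms only, TTTCGTTTC from -113 to -105 and TTTCATTTC from -68 to -60, both on the minus strand. In window 3 the core TTTCTCTTTC, on the minus strand, runs from -196 to -187 and overlaps TTCCGTGAA, a match to the GAS motif TTCNNNGAA, from -189 to -181. Of 35116 RefSeq promoter windows of this length, 3.574% hold GAAANNGAAA, 3.124% the short form, 6.396% either form and 7.657% TTCNNNGAA. A match is a description of the letters, not evidence of binding. No promoter of MX2 is printed.

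The deposited values are logarithms centred on each probe set's median over the 12 arrays, so a value of 0 is the middle of that probe set and not a level, and no detection call could be made. The base was taken as 2, which the sources do not state. Array medians lay between -0.031 and 0.026. Arrays of the same line correlated at 0.92 to 0.963 (18 pairs), and arrays of different lines at -0.609 to -0.368 (48 pairs, lowered by the centring). Of the markers of the labelled tissues, 2 of 5 prostate markers were highest in PC-3, among them the transcription factor HOXB13 with a mean of 4.61, while KLK2 and KLK3 were highest in HBC4 and ACP3 in MKN74. Of the breast markers 5 of 7 were highest in HBC4. Only 2 of 7 stomach markers were highest in MKN74, and the gastric secreted peptides TFF1 and TFF2 were highest in PC-3 (8.15 and 8.26). No member of the prostate, breast, stomach, leukocyte or fibroblast marker lists passed the test of G4 oligonucleotides against controls in limma (0 of 5, 0 of 7, 0 of 7, 0 of 5 and 0 of 7, with 0, 2, 0, 2 and 0 at an unadjusted p under 0.05). In RNA from whole cultures, fewer cells that make a transcript and less of it per cell cannot be told apart.

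MX1 ranged over 7.30 log2 units across the 12 arrays, the widest part of it between lines. In PC-3 its centred log2 value was 0.85 with (uuaggg)4 and 0.90 with AS1411, against 2.58 with (uuaccc)4 and 2.99 with the reagent alone. In HBC4 it was -0.85 with (uuaggg)4 and -1.60 with AS1411, against 2.28 with (uuaccc)4 and 1.90 with the reagent alone. Both G4 arrays lay well below both control arrays in each of these lines. In MKN74 MX1 was -3.82 with (uuaggg)4 and -4.31 with AS1411, against -3.75 with (uuaccc)4 and -3.95 with the reagent alone. These 4 arrays were the lowest of the 12, spanned 0.559 log2 units, and their G4 and control values overlapped.

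MX2 ranged over 4.03 log2 units across the 12 arrays, less than MX1, but within each line it spanned more: 2.92 against 2.14 for MX1 in PC-3, 4.03 against 3.87 in HBC4 and 1.07 against 0.559 in MKN74. In PC-3 its centred log2 value was -0.19 with (uuaggg)4 and -0.62 with AS1411, against 1.86 with (uuaccc)4 and 2.30 with the reagent alone. In HBC4 it was -0.71 with (uuaggg)4 and -1.46 with AS1411, against 2.57 with (uuaccc)4 and 2.35 with the reagent alone. In MKN74 it was -0.61 with (uuaggg)4 and -0.89 with AS1411, against 0.19 with (uuaccc)4 and 0.19 with the reagent alone. Both G4 arrays lay below both control arrays in each of the 3 lines. Over all probe sets, both G4 arrays lay below both control arrays in 21.8% in PC-3, 19.9% in HBC4, 20.2% in MKN74 and 2.98% in all 3 lines.

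**Figure D1:**
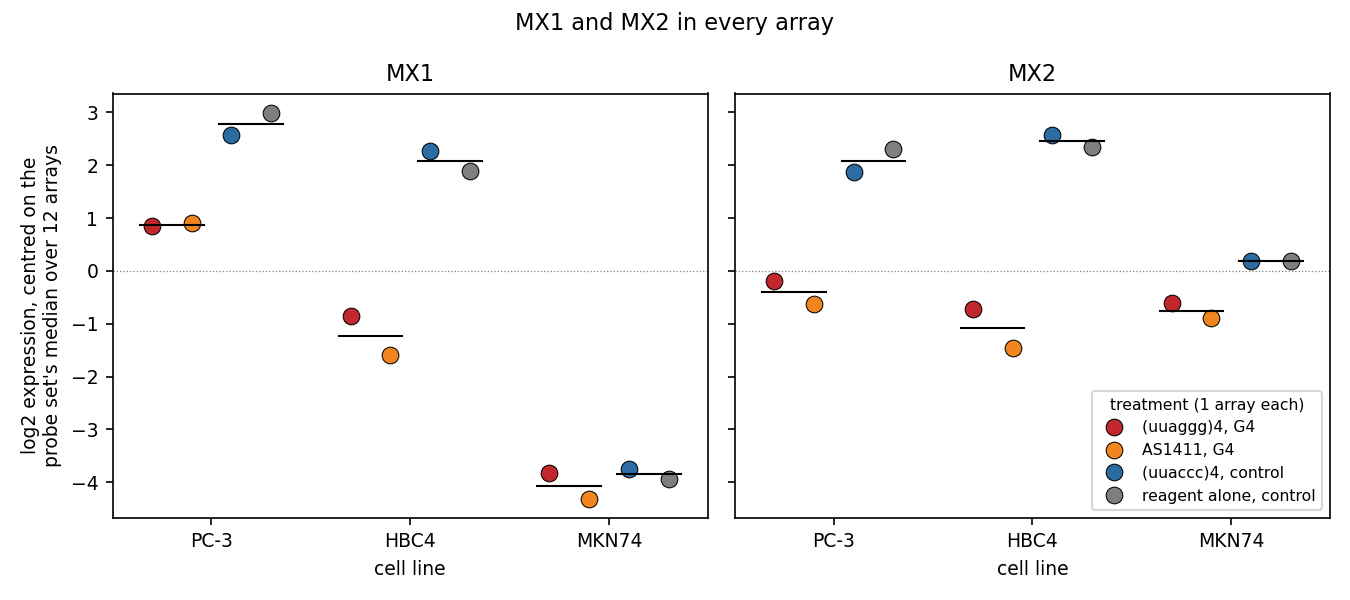
Centred log2 expression of MX1 (left) and MX2 (right) in each of the 12 arrays, by cell line, with each line's G4 arrays to the left of its control arrays; points are single arrays and bars the mean of the 2 arrays of a class. The G4 points lie below the control points in every line for MX2 and in PC-3 and HBC4 for MX1, while the 4 MKN74 points of MX1 lie together between -4.31 and -3.75.

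The study's main question was what the G4 oligonucleotides changed against the controls. Both MX genes fell. MX1 was lower by -1.81 ± 1.55 on the log2 scale (SD over n = 3 lines, 3.52-fold lower, 95% interval -2.66 to -0.97, limma adjusted p = 0.0433). MX2 was lower by -2.32 ± 1.31 (SD, n = 3 lines, 5.00-fold lower, 95% interval -3.04 to -1.61, limma adjusted p = 0.0055). Each had a negative difference in 3 of 3 lines. Of the 54613 probe sets tested, 1.57% passed in this comparison and 1.1% passed as lower; 46 had a more negative difference than MX1 and 15 a more negative one than MX2. P-values are adjusted by Benjamini-Hochberg over all probe sets and measure the spread that line and treatment leave unexplained. The call of MX1 was lost on leaving out any single array of PC-3 or HBC4 (adjusted p 0.0746 to 0.123), and that of MX2 on leaving out the whole PC-3 line (-2.24, adjusted p = 0.117) or the whole HBC4 line (-1.71, adjusted p = 0.105).

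Each G4 oligonucleotide was then set against its own control. AS1411 against the reagent alone gave -2.60 ± 1.40 for MX2 (SD, n = 3 lines, 6.07-fold lower, limma adjusted p = 0.0424) and -1.98 ± 1.57 for MX1 (adjusted p = 0.182). By line the MX2 difference was -2.92 (PC-3), -3.81 (HBC4) and -1.07 (MKN74), and that of MX1 was -2.09, -3.49 and -0.36 in the same order. MX2 passed and MX1 did not, where 0.35% of all probe sets passed. The MX2 call rested on the pooled spread: with only the 6 arrays compared its adjusted p was 0.133, and leaving out any array of PC-3, or any of HBC4 but that of (uuaccc)4, also ended it (adjusted p 0.0583 to 0.205).

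(uuaggg)4 against (uuaccc)4, the pair of RNA oligonucleotides that differ by guanine and cytosine in the repeat, gave -2.04 ± 1.24 for MX2 (SD, n = 3 lines, limma adjusted p = 0.201) and -1.64 ± 1.53 for MX1 (adjusted p = 0.41). Neither passed, where 0.165% of all probe sets did. By line the difference was -2.05 (PC-3), -3.28 (HBC4) and -0.80 (MKN74) for MX2, and -1.73, -3.13 and -0.07 in the same order for MX1. Without MKN74 the MX2 difference was -2.66 (adjusted p = 0.0125).

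The 2 G4 oligonucleotides were also set against each other, as were the 2 controls. (uuaggg)4 minus AS1411 was 0.39 for MX1 (95% interval -0.81 to 1.59) and 0.49 for MX2 (-0.52 to 1.50). (uuaccc)4 minus the reagent alone was 0.05 for MX1 (-1.15 to 1.25) and -0.07 for MX2 (-1.09 to 0.94). None of these 4 differences passed in limma, and the intervals leave room for differences of more than 1 log2 unit except on the lower side between the G4 oligonucleotides and on the upper side of MX2 between the controls. No probe set of the array passed in either comparison (0%), with 2633 and 1703 at an unadjusted p under 0.05.

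Within single lines, where the 2 G4 arrays and the 2 control arrays served as replicates, the declines were largest in HBC4. There MX1 fell, with a log2 difference of -3.31 (9.94-fold lower, limma adjusted p = 4.27e-05), as did MX2, with -3.54 (11.7-fold lower, adjusted p = 2.34e-05), and 1.55% of probe sets passed. In PC-3 both fell, MX1 with -1.91 (3.76-fold lower, adjusted p = 0.00217) and MX2 with -2.49 (5.60-fold lower, adjusted p = 2.16e-04), and 1.21% of probe sets passed. In MKN74 neither passed, where 0.831% of probe sets did: the difference was -0.22 for MX1 (95% interval -0.75 to 0.32, adjusted p = 0.78) and -0.94 for MX2 (-1.45 to -0.42, 1.91-fold lower, adjusted p = 0.12). The spread behind these values is that between arrays of different treatments of a class, not between repeat cultures.

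The difference between lines was tested itself. The response to the G4 oligonucleotides differed between the 3 lines for MX1 (F = 40.6, limma adjusted p = 0.00898) and for MX2 (F = 31.0, adjusted p = 0.0181), where 0.487% of probe sets passed. The response in MKN74 minus that in HBC4 was 3.09 for MX1 (adjusted p = 0.00615) and 2.61 for MX2 (adjusted p = 0.0122), with 0.233% of probe sets passing; 4 probe sets of the array had a difference larger in size than that of MX1. MKN74 minus PC-3 was 1.69 for MX1 (adjusted p = 0.0753) and 1.55 for MX2 (adjusted p = 0.0909), and did not pass (0.372% of probe sets did). HBC4 minus PC-3 was -1.40 for MX1 (adjusted p = 0.186) and -1.06 for MX2 (adjusted p = 0.296), and did not pass either (0.137% did). Under quantile normalization these values were -2.24 for MX1, which then passed (adjusted p = 0.0453), and -1.86 for MX2 (adjusted p = 0.0695). That step was run on the centred values. It therefore gave arrays of all lines the same distribution of deviations from the probe sets' medians, and can stretch or shrink the values of a line. The MX2 calls ended on leaving out some single arrays (adjusted p up to 0.0691 for the F test, without the (uuaccc)4 array of MKN74, and up to 0.0653 for MKN74 minus HBC4, without the (uuaccc)4 array of HBC4), while the MX1 calls of the F test and of MKN74 minus HBC4 held without each array in turn.

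**Figure D2:**
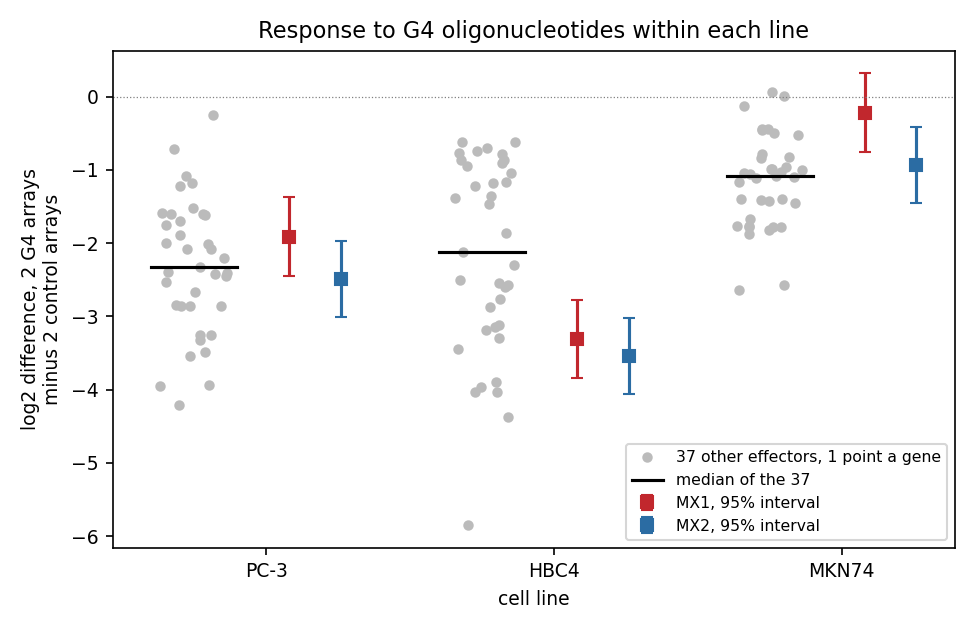
Log2 difference between the 2 G4 arrays and the 2 control arrays within each line, for MX1 (red) and MX2 (blue) with 95% intervals from the fit, and for 37 other interferon-stimulated effector genes (grey, 1 point a gene, bar at their median). MX1 and MX2 lie below the effector median of -2.12 in HBC4 and above the median of -1.09 in MKN74.

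The lines already differed without a G4 oligonucleotide, MX1 far more than MX2. In control arrays MX1 was 99.4-fold lower in MKN74 than in PC-3 (log2 difference -6.64, limma adjusted p = 9.29e-10) and 61.3-fold lower in MKN74 than in HBC4 (-5.94, adjusted p = 3.34e-09). Quantile normalization gave -5.29 and -5.27 for these log2 differences. MX2 was 3.73-fold lower in MKN74 than in PC-3 (-1.90, adjusted p = 3.30e-05) and 4.83-fold lower in MKN74 than in HBC4 (-2.27, adjusted p = 9.50e-06). Lines differ at many genes, and 44.8% of probe sets passed between MKN74 and PC-3 and 37.1% between MKN74 and HBC4; 106 and 143 probe sets had a more negative difference than MX1. Between HBC4 and PC-3, where 40.3% passed, MX1 was lower by -0.70 (adjusted p = 0.0391) and MX2 differed by 0.37 (adjusted p = 0.246). Quantile normalization moved the MX1 value between HBC4 and PC-3 to -0.027 (adjusted p = 0.953) and that of MX2 to 0.91 (adjusted p = 0.0124). The order of MX1 in control arrays was therefore MKN74, then HBC4 and PC-3, whose difference did not pass under that scaling, nor without the reagent-alone array of PC-3 (adjusted p = 0.24) or of HBC4 (0.231), nor without the (uuaggg)4 or the AS1411 array of PC-3 (0.0505 each). The control arrays enter both the line difference and the response, and whether the low MX1 values of MKN74 lie at the background of its probe set was not tested, since the table holds no level.

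MX1 and MX2 sit side by side on chromosome 21, in the order FAM3B, MX2, MX1, TMPRSS2. The neighbours are a chosen list of 12 measured genes of the region. It includes ABCG1 from further along and leaves out some measured genes that lie nearer. None of these 12 passed for G4 oligonucleotides against controls in limma (0 of 12, with 1 at an unadjusted p under 0.05). Their log2 differences ranged from -0.19 for ZBTB21 to 0.23 for RIPK4. FAM3B, a secreted cytokine-like protein, gave 0.13 and TMPRSS2, a serine protease that cleaves influenza and coronavirus surface proteins, gave 0.00. Within single lines RIPK4, a kinase of epithelial differentiation, was higher in PC-3 (0.66, adjusted p = 0.00316) and FAM3B was higher in HBC4 (0.48, adjusted p = 0.0448). Each was 1 of the 12 neighbours, where 120 of 19775 genes passed as higher within PC-3 and 303 within HBC4. Between the lines' control arrays some neighbours were lower too, 6 of 12 in MKN74 against PC-3 and 4 of 12 in MKN74 against HBC4, where 24.8% and 20.5% of all genes were. The protease BACE2 was lower in MKN74 by -1.84 against PC-3 and -2.41 against HBC4, and C2CD2 by -3.55 and -1.34. TMPRSS2 was lower by -1.33 and -0.83 and RIPK4 by -1.11 and -1.12. None of the 12 differed between MKN74 and PC-3 by as much as MX1. ABCG1, a cholesterol exporter further along the chromosome, was lower in MKN74 than in PC-3 (-0.71) and higher than in HBC4 (3.58).

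**Figure D3:**
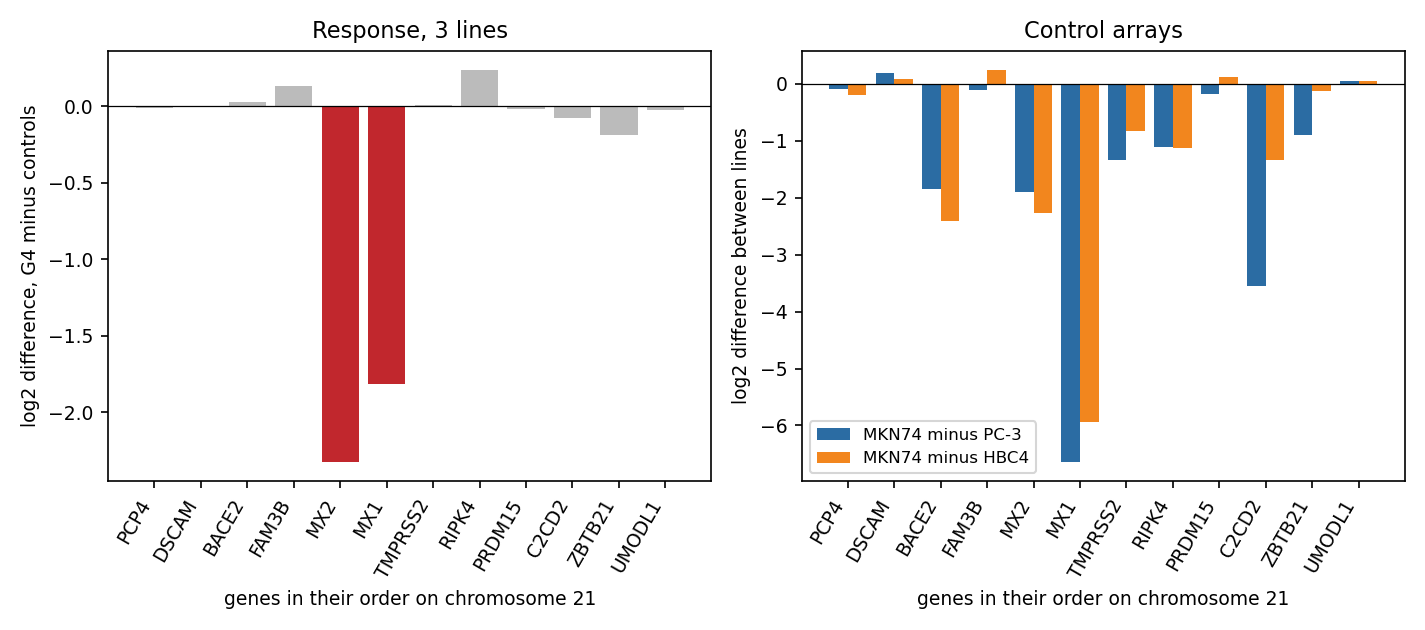
MX1, MX2 and 10 measured neighbours of the list in their order on chromosome 21 (horizontal axis, not to scale, genes outside the list not drawn): log2 difference between G4 and control arrays over 3 lines (left) and between the control arrays of MKN74 and those of PC-3 or HBC4 (right). Bars start at 0; the neighbours lie between -0.19 and 0.23 on the left, and MX1 reaches -6.64 and -5.94 on the right.

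The 2 genes were compared with each other by their changes, since levels of different probe sets cannot be set against each other. The MX1 change minus the MX2 change was 0.57 in PC-3 cells, 0.23 in HBC4 cells and 0.72 in MKN74 cells, so MX2 had the more negative change in 3 of 3 lines. The mean was 0.51 ± 0.25 (SD, n = 3 lines, exact two-sided permutation of treatments within lines, p = 0.00926, the smallest that 216 arrangements can give). That p comes from relabelling single arrays within lines and does not measure the spread between the 3 lines. Leaving out a line left 0.40 to 0.65, with a permutation p of 0.0556, the smallest that design allows. The 2 probe sets can differ in how far they compress a change, which was not tested. The largest of the 3 values was that of MKN74, where the G4 and control values of MX1 overlapped. Whether MX1 lay at background there was not tested.

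The genes around MX1 and MX2 were taken from lists of the pathway by role, tested on the mean of each gene's probe sets over 19775 genes. In that fit 1.65% of genes passed as lower and 0.961% as higher for G4 oligonucleotides against controls, and the median of all genes was 0.02. Leaving out a line cut the calls over the whole array as well. They went from 859 probe sets to 218 without PC-3, 80 without HBC4 and 378 without MKN74. A list's loss of calls without a line is therefore not particular to its genes. The lists were drawn up with earlier results of these data known, so their direction is no independent evidence.

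Among the interferons, 2 of 7 measured ligands fell, both of type III. IFNL2 gave -1.42 ± 1.13 (SD, n = 3 lines, limma adjusted p = 0.0361) and IFNL1 gave -0.72 ± 0.42 (adjusted p = 0.0203). IFNB1, the type I interferon that most cells make first, gave -0.70 ± 0.56 and did not pass (adjusted p = 0.0674). Within HBC4 alone 3 of the 7 ligands passed as lower, IFNB1 (-1.33, adjusted p = 0.00347) and IFNL1 (-1.20, adjusted p = 0.00712) among them. The count was 0 within PC-3 and 1 within MKN74. Of all genes, 1.83% passed as lower within HBC4, 1.26% within PC-3 and 1.27% within MKN74. IFNL2 differed most in HBC4, by -2.63, against -0.41 in PC-3 and -1.22 in MKN74. In the test over lines, no ligand passed without HBC4 or without MKN74. Nor did any without the (uuaggg)4, AS1411 or reagent-alone array of HBC4, or without the (uuaggg)4 array of MKN74. None of 9 measured receptor chains and kinases passed (3 at an unadjusted p under 0.05): the largest difference was that of the kinase JAK2, -0.30 (adjusted p = 0.0949), and the receptor chains IFNAR1 and IFNLR1 gave 0.03 and -0.02.

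Of 6 measured transcription factors 4 fell. IRF7, the amplifier of interferon production, gave -1.09 ± 0.42 (SD, n = 3 lines, limma adjusted p = 0.00128), and IRF9, the DNA-binding part of the complex that acts on the ISRE, gave -0.99 ± 0.51 (adjusted p = 0.00712). IRF1 gave -0.50 ± 0.18 (adjusted p = 0.0043) and IRF2, its antagonist, -0.26 ± 0.08 (adjusted p = 0.0402). IRF3 gave -0.01 and IRF5 0.13, and neither passed. Without HBC4 the count of factors lower was 0, and without PC-3 it was 1. Of 8 inhibitors of the pathway 1 fell: USP18, which removes ISG15 from proteins, blocks the type I receptor and is itself induced by interferon, gave -2.12 ± 0.86 (adjusted p = 0.00116), while SOCS1 and SOCS3 gave 0.12 and 0.10. Of 8 sensors and adaptors that lead to interferon production 3 fell, the RNA helicases RIGI (-1.54 ± 0.84, adjusted p = 0.00728) and IFIH1 (-1.29 ± 0.48, adjusted p = 0.00116) and the endosomal receptor TLR3 (-0.86 ± 0.25, adjusted p = 0.00496). The probe sets of TLR3 spread from -1.36 to -0.04 and those of RIGI from -2.06 to -0.57. MAVS, the adaptor of the helicases, gave 0.09. Without HBC4 neither the inhibitor nor any of the sensors passed, where 80 probe sets of the whole array passed in place of 859.

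Among 37 other interferon-stimulated effectors, 34 fell and 0 rose, with a median of -1.98, and 20 fell without HBC4. Those that did not pass were EPSTI1 (-1.59, adjusted p = 0.0501), OASL, an OAS-like protein that enhances RIGI signalling (-1.51, adjusted p = 0.0523), and the ubiquitin ligase TRIM22 (-1.85, adjusted p = 0.0732). MX2 (-2.32) lay beyond the median of this list and MX1 (-1.81) short of it. RefSeq gave promoter windows for 32 of the 37, of which 24 hold GAAANNGAAA and 28 either ISRE form, against 4.376% and 7.834% of all 27305 genes with a window.

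The standing of MX1 and MX2 among the effectors changed from line to line. In HBC4 the effectors had a median of -2.12 and all 37 passed as lower (1.83% of genes did); 7 had a more negative value than MX1 and 6 than MX2. In PC-3 the median was -2.33 and 36 passed (1.26% of genes), all but the exonuclease ISG20; 24 had a more negative value than MX1 and 14 than MX2. In MKN74 the median was -1.09 and 30 passed (1.27% of genes), and 34 had a more negative value than MX1 and 26 than MX2. MX1 was thus near the strong end of the list in HBC4 and near its weak end in MKN74. The 3 effectors with a less negative value than MX1 in MKN74 were EPSTI1 (0.06), OASL (0.01) and SAMD9L (-0.12), a restriction factor of poxviruses.

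These 3 effectors, chosen after their values were seen, were also lower in the control arrays of MKN74. OASL was lower in MKN74 by -5.54 against PC-3 and -3.96 against HBC4, SAMD9L by -4.88 and -4.78, and EPSTI1 by -2.98 and -3.28. Other effectors were lower there as well and yet fell within MKN74. LGALS3BP was lower by -3.03 and -3.77 and gave -1.76 within MKN74. IFI44L was lower by -2.55 and -2.91 and gave -2.64, and IFI44 by -2.42 and -2.51 and gave -2.58. Of the 37 effectors, 24 were lower and 3 higher in the control arrays of MKN74 than in those of PC-3, where 24.8% of all genes were lower. The median of the list was -0.65 (0.07 over all genes), with a range of -5.54 to 2.24, and no member was further below than MX1 (-6.64). Against HBC4, 19 were lower and 8 higher, where 20.5% of all genes were lower. The median there was -0.50 (0.02 over all genes), and only TRIM22 (-7.95) was further below than MX1 (-5.94). The highest value against PC-3, 2.24, was that of IFI27, which gave 0.94 against HBC4. IFI27 fell within MKN74 by 1.40. IFI6 was also higher in MKN74, by 1.14 against PC-3 and 1.20 against HBC4, and gave -0.84 within MKN74. The difference of MX1 between lines and its response in MKN74 share the control arrays of MKN74, and a link of the line difference to the response was not tested.

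**Figure D4:**
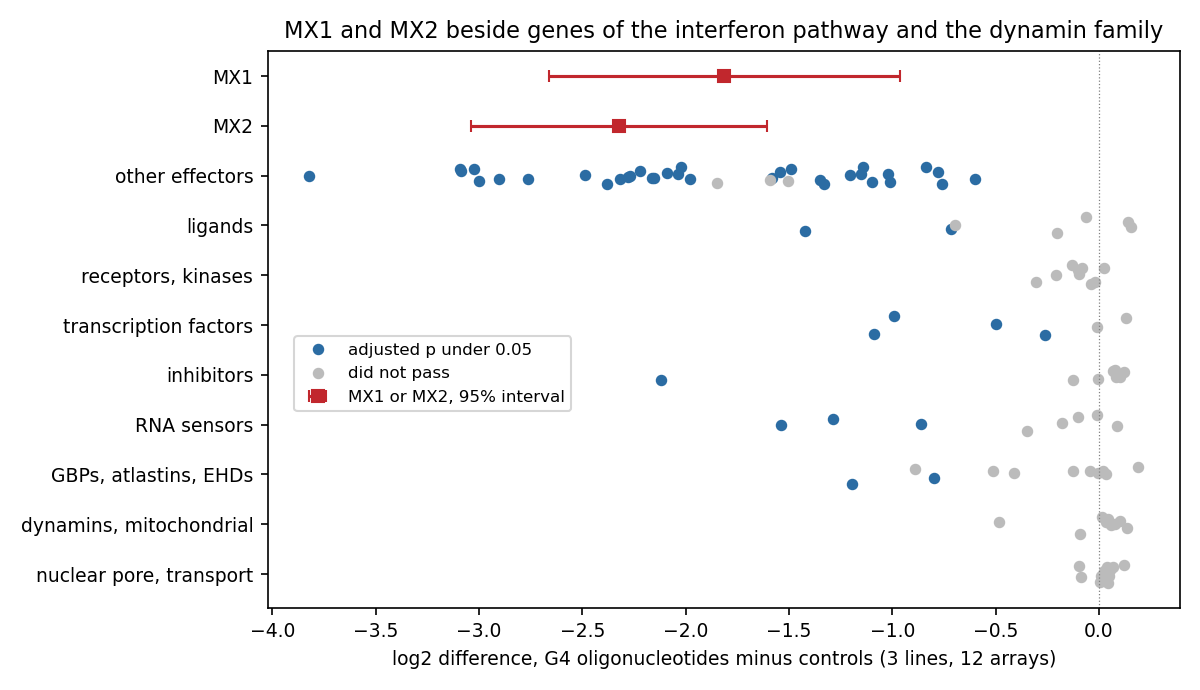
Log2 difference between G4 and control arrays over 3 lines for MX1 and MX2 (red, with 95% intervals from the fit) and for the genes of each list (1 point a gene, blue where the adjusted p was under 0.05). The effectors lie between -3.82 and -0.60, the receptors and kinases between -0.30 and 0.03, the dynamins between -0.48 and 0.13, and the nuclear pore genes between -0.10 and 0.12.

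Related GTPases were read in the same way. None of 9 measured dynamins and mitochondrial fusion or fission genes passed (1 at an unadjusted p under 0.05), with DNM1L, the mitochondrial fission GTPase, at 0.04, OPA1, which fuses the inner mitochondrial membrane, at 0.06, and DNM3 at -0.48 (adjusted p = 0.197). Within HBC4 alone DNM3 fell, with -1.30 (adjusted p = 5.6e-05). Among 11 measured guanylate-binding proteins, atlastins and EHD proteins 2 fell, GBP1 (-1.20 ± 0.95, limma adjusted p = 0.0348) and GBP3 (-0.80 ± 0.27, adjusted p = 0.00147), both interferon-induced GTPases, and 6 were at an unadjusted p under 0.05. GBP2 gave -0.89 ± 0.93 and did not pass (adjusted p = 0.0934). The count was 1 without any array of PC-3 or HBC4, and 4 without MKN74 or its AS1411 array. Within PC-3 alone 4 of the 11 fell, GBP1 (-2.07) and GBP2 (-1.74) among them, as did 4 within HBC4 and 1 within MKN74, GBP3 (-0.70). Of all genes, 1.26% passed as lower within PC-3, 1.83% within HBC4 and 1.27% within MKN74. In MKN74 GBP1 gave -0.18 and GBP2 0.11, and in control arrays they were lower in MKN74 than in PC-3 by -4.16 and -3.92. In control arrays 7 of the 11 were lower in MKN74 than in PC-3 and 5 were lower than in HBC4. Of all genes 24.8% and 20.5% were. A link of these line differences to the response was not tested.

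Genes of host proteins tied to MX2 did not pass. None of 12 nuclear pore and transport genes did (1 at an unadjusted p under 0.05), and their range was -0.10 for PPP1R12A, a subunit of the phosphatase that acts on MX2, to 0.12 for TNPO3, a nuclear import receptor used by HIV. NUP214 and RANBP2, both pore proteins, gave 0.02 and -0.08. Of 4 partners of MX1 none passed (2 at an unadjusted p under 0.05). The RNA helicase DDX39A gave 0.26 (adjusted p = 0.0532), and 0.43 within HBC4, where it passed as higher (adjusted p = 0.0153). Of 19775 genes, 303 passed as higher within HBC4. PIAS1, a SUMO ligase, gave -0.13 over the 3 lines.

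The genes whose pattern was most like that of MX1 and MX2 were found over the 12 arrays among 19774 other genes, as a description. By the root-mean-square difference of their log2 values, which counts line and treatment alike, the nearest to MX1 were TXNIP (0.86), OASL (0.87), BTN3A3 (0.92), CP (0.94) and CEACAM6 (0.99). These genes share the low control values of MKN74: BTN3A3, a butyrophilin, was lower there by -4.17 against PC-3 and CP, the copper carrier ceruloplasmin, by -4.68. The nearest to MX2 were interferon-stimulated genes, IFITM1 (0.35), which stops viral membranes from fusing, IFIT3 (0.49), IFI16 (0.55), IFIT2 (0.57) and OAS2 (0.59). Each line's mean was then removed, which leaves the differences between treatments within lines, including how these vary from line to line. With it removed, the gene most like MX1 was MX2 (r = 0.979), followed by CXCL11 (0.979), BTN3A3 (0.974), IFI27 (0.974) and IFI6 (0.973). For MX2 these were IFIT1 (0.996), HERC5 (0.995), ISG15 (0.993), IFI6 (0.993) and IFI27 (0.991), and 13 genes had a higher r with MX2 than MX1 had. By the root-mean-square difference, which includes the lines, 452 genes were nearer to MX1 than MX2 was, and 18947 were nearer to MX2 than MX1 was. The 12 values share 3 lines and 4 treatments, so no p is given.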

How the data were processed

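The deposited table holds log2 expression values from 12 Affymetrix arrays, made by the authors with RMA, per the submitters' processing notes; biotin-labelled cRNA came from 100 ng total RNA, per the labels' protocols. Each probe set had a median of 0 (within 5e-07), so a centring step followed RMA; neither this step nor the logarithm's base is recorded, and base 2 was taken because the highest value is 11.2.

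Of 54675 probe sets, 62 array controls were left out; 41091 named 1 gene, 1801 several and 11721 none here. Names came from the platform annotation of 2016 (41037 probe sets matched RefSeq by gene identifier, 0 symbols changed). limma 3.58.1 in R 4.3.3 was fitted to all 12 arrays and 54613 probe sets, with treatment and cell line as terms (6 residual degrees of freedom), and in a second model with line and a class effect per line. Cell line is the replicate block because arrays numbered alike come from the same line. Lists were tested on means of probe sets over 19775 genes. Intervals are 95%, and the threshold was an adjusted p of 0.05. The code was tested on simulated data. The number of arrays limits the precision, and no depth applies.

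Named genes were MX1 and MX2, members of the neighbour, interferon signalling and dynamin lists, members of other lists past the threshold or with the 2 largest changes short of it, and the 5 nearest genes by each measure of likeness; any further name was picked with its value known. The members and lists were chosen with earlier results of these data known. Alternatives were other units of testing, array scalings, a robust variance prior, no line block, fewer arrays, and leaving out each array and line; those for the lists were added after seeing the data.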

Additional observations from a re-analysis of the deposited data

Results flagged for a closer look

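The response to the G4 oligonucleotides differed between lines for both genes, by the test of the difference itself. For MX1 the F statistic over the 3 lines was 40.6, and the response in MKN74 minus that in HBC4 was 3.09 on the log2 scale, from a within-line difference of -0.22 in MKN74 and -3.31 in HBC4. For MX2 the F statistic was 31.0, and MKN74 minus HBC4 was 2.61, from -0.94 in MKN74 and -3.54 in HBC4. In the control arrays of the same lines MX1 was lower in MKN74 than in HBC4 by -5.94 and MX2 by -2.27. The part of that difference in the response was not tested.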

How the results depend on the processing

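Over 31 results on MX1 and MX2 and their alternatives (562 comparisons), 498 kept their direction and their side of the threshold, 43 lost the call, 9 gained it and 12 changed sign, all 12 among differences that had not passed. Of the 43, 3 are the MX1 change minus the MX2 change with a line left out. Their loss was fixed in advance, since the permutation p cannot then fall under 0.0556. Many of the 498 had a difference that the alternative could not change. MX1 and MX2 have 1 probe set each, so settings with genes as units repeat their values. In the model with a class effect per line, leaving out an array of another line also keeps the difference. The count of 498 is therefore no measure of robustness.

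Leaving out single arrays or lines gave these ranges. G4 oligonucleotides against controls: -2.61 to -1.06 for MX1 (without PC-3 adjusted p = 0.26, without HBC4 0.27, without MKN74 0.00415) and -3.01 to -1.71 for MX2. (uuaggg)4 against (uuaccc)4: -2.43 to -0.90 for MX1 and -2.66 to -1.42 for MX2. AS1411 against the reagent alone: -2.79 to -1.23 for MX1 (without MKN74 adjusted p = 0.0353) and -3.37 to -2.00 for MX2. (uuaccc)4 against the reagent alone: -0.55 to 0.54 for MX1 and -0.58 to 0.36 for MX2. (uuaggg)4 against AS1411: -0.22 to 0.90 for MX1 and -0.0087 to 1.02 for MX2. Within MKN74: -0.46 to 0.026 for MX1. MKN74 minus PC-3 in response: 1.45 to 1.94 for MX1 and 1.33 to 1.77 for MX2, where leaving out either G4 array of HBC4 gave a call (adjusted p 0.0422 and 0.0467). MKN74 minus HBC4 in response: 2.24 to 2.98 for MX2. The F statistic: 21.4 to 54.1 for MX2. HBC4 against PC-3 in control arrays: -0.91 to -0.49 for MX1. MX1 change minus MX2 change: 0.40 to 0.65.

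Quantile normalization, run on the centred values, made the distribution of deviations from the probe sets' medians the same in every array. It gave -1.79 for MX1 with G4 oligonucleotides (adjusted p = 0.0895), -2.50 for MX2 with AS1411 (0.125) and -2.24 for MX1 in HBC4 minus PC-3 response (0.0453). In control arrays of HBC4 against PC-3 it gave -0.027 for MX1 and 0.91 for MX2. Taking the mean of probe sets per gene, with fewer features tested, left MKN74 minus PC-3 at 1.69 for MX1 (adjusted p = 0.0477). With the 6 arrays compared alone, MX2 with AS1411 stayed at -2.60. Without the replicate block the values were -1.81 for MX1 and -2.32 for MX2 with G4 oligonucleotides and -2.60 for MX2 with AS1411, each at an adjusted p of 1, since the line differences then enter the spread. The cause of the other changes was not tested.

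Members lower per list ranged, on leaving out arrays or lines, over 0 to 2 ligands, 0 to 1 receptors and kinases, 0 to 4 transcription factors, 0 to 1 inhibitors, 0 to 3 sensors, 20 to 36 effectors and 1 to 4 GBPs, atlastins and EHDs; 0 to 1 MX1 partners were higher. Without the block they were 0 ligands, 0 transcription factors, 0 inhibitors, 0 sensors, 1 effector and 0 of the GBP list. Quantile normalization left 1 ligand and 1 of the GBP list, equal array medians 5 sensors, and the probe set of largest SD 4 of the GBP list.

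Counts of probe sets called moved by over 1.5 times in places. For G4 oligonucleotides they were 859, against 515 or 516 with genes as units, 0 without the block and 80 to 654 with arrays left out. For (uuaggg)4 against (uuaccc)4 they were 90, against 30 under quantile normalization and 4 to 94 with arrays left out. For AS1411 they were 191, against 45 with its 6 arrays alone and 14 to 174 with arrays left out. Within HBC4 they were 845, against 2131 under quantile normalization and 261 to 698 with arrays left out, and within PC-3 659, against 369 to 387 with genes as units or quantile normalization and 245 to 615 with arrays left out. In response, quantile normalization gave 140 in place of 75 for HBC4 minus PC-3, 81 in place of 203 for MKN74 minus PC-3 and 236 in place of 127 for MKN74 minus HBC4. With arrays left out these were 8 to 66, 46 to 188 and 41 to 97 in the same order, those within MKN74 152 to 369 in place of 454, and those of the F test 94 to 187 in place of 266. With genes as units, fewer features, the control-array counts were 9970 or 10567 for HBC4 against PC-3 (21984 probe sets), 10722 or 11601 for MKN74 against PC-3 (24449) and 9106 or 9823 for MKN74 against HBC4 (20251).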
